A study of Mus musculus with 61 samples.

Results

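The immunity-related GTPases are a family of GTP-binding proteins that mouse cells make in response to interferon. The 10 genes described here are Irgm1, Irgm2, Igtp, Ifi47, Iigp1, Tgtp1, Tgtp2, 9930111J21Rik1 and 9930111J21Rik2, together with Gvin1, a much longer interferon-inducible GTPase. They were picked by symbol from the 21169 genes of the deposited count table, and all 10 are present. They were picked with earlier strain differences of these same libraries in view. Their levels by strain are therefore a description with no p-value. Calls by strain are only counted, beside the share of all genes called, and nothing is read from them.

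RNA of mouse adipose tissue was measured by poly(A) RNA sequencing in 61 libraries, from 8 inbred strains. The strains are labelled 129, AJ, B6, Cast, NOD, NZO, PWK and WSB, with 7 libraries of 129, AJ and Cast and 8 of every other strain. Cast, PWK and WSB descend from wild-caught mice and the rest are laboratory strains, of which NZO is prone to obesity and NOD to autoimmune diabetes. All mice had been placed on a diet high in fat and sugar, given as 45 percent fat, so no library stands for another diet. The fat depot, sex, age and any batch are not given in the sources used here. The labels number the libraries but do not state how animals and libraries correspond, so p-values measure the spread between these libraries.

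Library totals ran from 19851580 to 61277576 expected counts, and 18603 genes passed the filter on low counts, all 10 GTPase genes among them. The adipocyte genes Adipoq (221 to 3410 CPM), Plin1 (203 to 2080 CPM) and Lipe (215 to 2300 CPM) were present in every library, CPM being counted reads relative to the scaled library total. In 5 libraries (AJ replicate 8, Cast replicate 3 and PWK replicates 2, 4 and 7) the summed level of 6 liver genes passed 500 CPM. In bulk tissue, fewer cells of a type and less RNA per cell cannot be told apart.

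The family works as 2 classes. The regulators (GMS class: Irgm1, Irgm2 and Igtp, also called Irgm3) sit on the cell's own membranes and hold the effectors in an inactive state. The effectors (GKS class: Ifi47, Iigp1, Tgtp1, Tgtp2 and the tandem Irgb proteins) load onto vacuoles that contain parasites such as Toxoplasma gondii and break them open, with guanylate-binding proteins and part of the autophagy machinery. Interferon gamma, made by T and NK cells, induces most of them. Their messages are low at rest and rise in most cell types after interferon, those of fat tissue included.

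The class names come from the nucleotide-binding loop, and the coding sequence shows the difference. The stretches below are 42 bases of coding strand from GENCODE M21 transcripts on GRCm38, with the codon that separates the classes in capitals. They are shown because the class decides the order in which the genes are described.
Irgm1 (chr11:48866752-48866793, minus strand): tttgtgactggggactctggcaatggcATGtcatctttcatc
Igtp (chr11:58206266-58206307, plus strand): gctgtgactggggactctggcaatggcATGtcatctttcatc
Ifi47 (chr11:49095639-49095680, plus strand): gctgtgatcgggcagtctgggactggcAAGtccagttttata
Tgtp2 (chr11:49059525-49059566, minus strand): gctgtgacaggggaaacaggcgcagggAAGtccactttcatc
Gvin1 (chr7:106160746-106160787, minus strand): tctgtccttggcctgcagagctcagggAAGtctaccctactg
Irgm2 has the same 42 bases as Igtp, and Tgtp1 the same as Tgtp2. The 3 regulators carry ATG at this place. Ifi47, Tgtp1, Tgtp2 and Gvin1 carry AAG. Each tandem gene codes for 2 such loops, the first with AAG and the second with AAA at this place in both 9930111J21Rik1 and 9930111J21Rik2.

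Of the 10 genes, 6 lie within 235 kb of chromosome 11 (48861968 to 49096974 on GRCm38), 2 within 23.2 kb further along it (58199556 to 58222782), and Gvin1 lies on chromosome 7 (106156556 to 106215326). Promoter windows of 300 bases, from 250 before to 50 after the start, were taken from RefSeq (GRCm38.p6) for 8 genes. They were searched on both strands for the interferon-stimulated response element, searched as GAAA repeated after any 2 bases, and the gamma-activated site, searched as TTCNNNGAA. The response element occurred in 3.44% of 32851 mouse promoter windows, the gamma-activated site in 8.3% and both in 0.454%. Among the 8 genes, 6 held the response element and 4 of these both motifs. The windows are shown with matches in capitals because the 4 genes with both share 1 layout.
Irgm1 (chr11:48871421-48871464, minus strand): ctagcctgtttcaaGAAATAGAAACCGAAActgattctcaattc
Irgm2 (chr11:58214888-58214936, plus strand): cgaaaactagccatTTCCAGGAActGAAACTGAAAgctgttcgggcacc
Igtp (chr11:58199497-58199545, plus strand): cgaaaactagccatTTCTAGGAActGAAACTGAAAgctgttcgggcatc
Tgtp1 (chr11:48992300-48992348, minus strand): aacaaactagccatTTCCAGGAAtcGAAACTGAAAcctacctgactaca
Tgtp2 (chr11:49064259-49064307, minus strand): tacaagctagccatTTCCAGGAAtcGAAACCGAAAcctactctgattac
9930111J21Rik1 (chr11:48979332-48979369, minus strand): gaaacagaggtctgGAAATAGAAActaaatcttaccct
In Irgm2, Igtp, Tgtp1 and Tgtp2 the gamma-activated site came first and the response element followed 2 bases later. Irgm1 held 2 overlapping response elements and no gamma-activated site. The 9930111J21Rik1 match began at base 27 of the annotated transcript. The windows of Ifi47 and 9930111J21Rik2 held neither string, which says only that these letters are not in these windows. A match describes the reference sequence of B6 and not a bound site or another strain's sequence.

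Several members have near-identical copies, and the deposited counts divide reads among matching genes. Tgtp1 and Tgtp2 differ at 4 of 1245 coding bases (99.68% identical), 9930111J21Rik1 and 9930111J21Rik2 at 11 of 2532 (99.57%), and Gvin1 and the predicted gene Gm4070 at 3 of 7281 (99.96%). Of each pair, 1 difference is shown in capitals below, to make plain how little sequence assigns a read to a copy. The tokens give the base in the first gene, its position from the first coding base and the base in the second.
Tgtp1, C408T (chr11:48987455-48987483, minus strand): aagtttggtgagtaCgacttcttcattat
Tgtp2, C408T (chr11:49059322-49059350, minus strand): aagtttggtgagtaTgacttcttcattat
9930111J21Rik1, C2208T (chr11:48947537-48947565, minus strand): gggctggatgaagcCtcactggaaaacat
9930111J21Rik2, C2208T (chr11:49019383-49019411, minus strand): gggctggatgaagcTtcactggaaaacat
Gvin1, G1805T (chr7:106163442-106163470, minus strand): atctcagttgtgcaGccttctagaacctc
Gm4070, G1805T (chr7:105902025-105902053, minus strand): atctcagttgtgcaTccttctagaacctc
Estimates were not whole numbers in all 61 libraries for Tgtp1, Tgtp2, Gvin1 and 9930111J21Rik2, in 58 for Irgm2 and Igtp, whose annotated spans overlap, and in 56 for 9930111J21Rik1. Irgm1 and Iigp1 had whole numbers in every library. How reads of each strain were aligned is not given in the sources used here. A low value of 1 copy can therefore be a low transcript level, an absent copy or a strain sequence that reads as the other copy, and these cannot be told apart.

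Levels between genes can be compared only per length, which was done in B6, the strain of the reference genome. Per kilobase of merged exon, Irgm2 had the highest mean (12.6 ± 4.03 CPM per kb, SD, n = 8). Igtp (9.68 ± 2.76 CPM per kb), Tgtp2 (9.47 ± 3.9), Gvin1 (9.42 ± 2.87) and Iigp1 (8.03 ± 2.73) lay close together. They were followed by 9930111J21Rik2 (6.64 ± 0.97), Tgtp1 (5.66 ± 2.8), Ifi47 (5.26 ± 1.59) and Irgm1 (5.05 ± 1.02), and 9930111J21Rik1 was lowest (1.66 ± 0.362 CPM per kb). Apart from 9930111J21Rik1, neighbours in this order differed by less than the larger of their SDs.

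**Figure D1:**
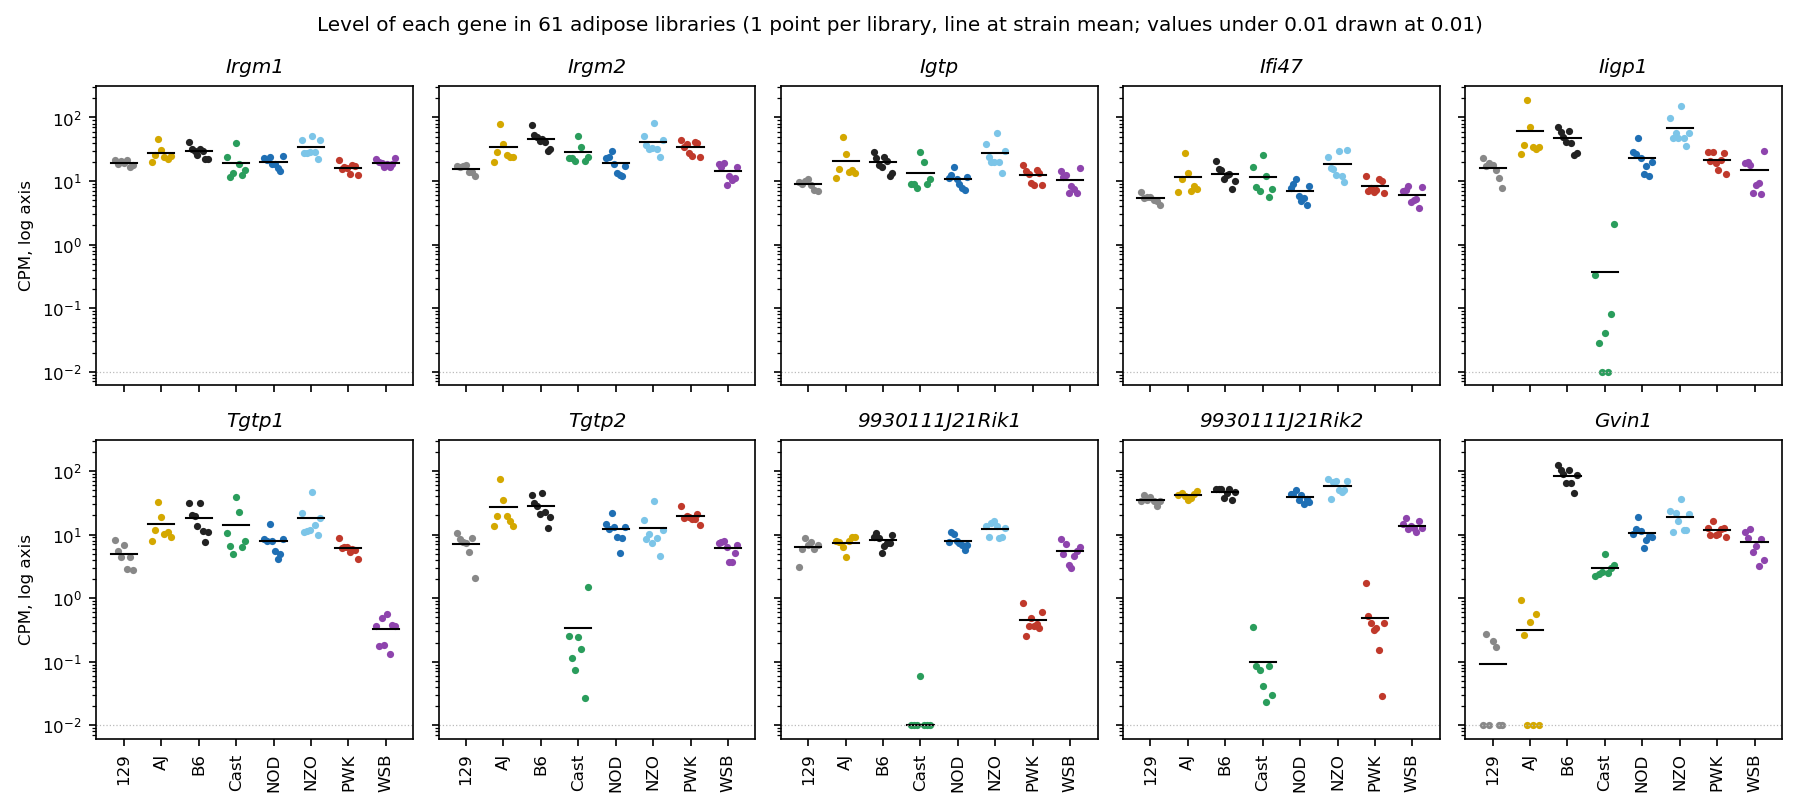
Level of each gene in CPM (log axis) in each of the 61 libraries by strain, with a line at the strain mean; values under 0.01 CPM are drawn at 0.01. From Irgm1 to Ifi47 the strain lines stay within a factor of 3.5, while Iigp1 and Tgtp2 in Cast, Tgtp1 in WSB, both 9930111J21Rik genes in Cast and PWK, and Gvin1 in 129 and AJ lie below 1 CPM.

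Among the regulators, strain means lay close together and no 2 neighbours in the order of strains were apart. Irgm1, which also acts in autophagy and in resistance to mycobacteria, ran in NZO from 22.2 over a median of 28.6 to 50.9 CPM, and in PWK, the lowest strain, from 12.4 over 16.3 to 21.5 CPM. The highest strain mean was 2.12 times the lowest, and the fitted log2 fold change of NZO against the mean of the other 7 strains was 0.70 ± 0.13 (SE). Here and below, the SE of a fold change or slope is worked back from the edgeR test. It is the absolute estimate divided by the square root of the F statistic, and for strains near 0 it may understate the uncertainty.

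Irgm2 ran in B6 from 29.3 over a median of 44.3 to 77.3 CPM and in WSB, the lowest strain, from 8.62 over 14.3 to 19.5 CPM. No B6 library was as low as any WSB library, although both overlapped other strains. The log2 fold change was 0.91 ± 0.17 for B6 and -1.05 ± 0.20 for WSB, each against the other 7 strains.

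Igtp, needed for resistance to Toxoplasma gondii, ran in NZO from 13.3 over a median of 21.8 to 57.3 CPM, and in 129, the lowest strain, from 7.06 over 8.89 to 10.7 CPM. The NZO and 129 libraries did not overlap, and the log2 fold changes were 1.08 ± 0.19 and -0.80 ± 0.23 against the other strains. AJ had a log2 fold change of 0.59 ± 0.21, which became 0.00 without AJ replicates 3 and 4. With those libraries AJ averaged 20.6 ± 13.5 CPM (SD, n = 7), and without them 13.7 ± 1.76 CPM (SD, n = 5).

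Ifi47, also called Irgd, is the effector that behaved most like the regulators. It ran in NZO from 9.59 over a median of 15.5 to 30.7 CPM, and in 129 from 4.21 over 5.48 to 6.6 CPM. The highest strain mean was 3.5 times the lowest and all neighbouring strains overlapped. The share of its variance in log2 CPM that lay between strains was 54.5%, near that of Irgm1 (54.6%), Igtp (50.5%) and Irgm2 (65.3%) and near the median of all genes tested (48.7%).

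The other effectors and Gvin1 differed far more between strains. Their share of variance between strains ran from 87.6% in Tgtp1 to 97.6% in 9930111J21Rik1. At least 1 strain lay wholly apart from the other 7 in 5 of the 10 genes (Iigp1, Tgtp1, Tgtp2, Gvin1 and 9930111J21Rik1). Of all genes tested, 4.22% had such a strain, and since the genes were picked for strain differences nothing is read from that count.

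Iigp1, also called Irga6, is an effector that coats parasite vacuoles and lies on chromosome 18. It was nearly missing in 1 strain. Cast had 0.337, 0.028, 0, 0.0399, 0, 0.0796 and 2.14 CPM in replicates 1, 2, 3, 5, 6, 7 and 8. The other 7 strains ran from 6.33 CPM in a WSB library to 191 CPM in AJ replicate 3, so Cast lay apart from all of them. Over the 7 Cast libraries 89 reads were counted (0.347 CPM, exact 95% Poisson interval 0.279 to 0.427), of which 15 remained without replicate 8 (0.0677 CPM, 0.0379 to 0.112). These intervals cover counting error only. Outside Cast, NZO was highest (35 to 150 CPM, median 52.1), before AJ (26.8 to 191, median 34.8) and B6 (26 to 69.8, median 45.1), and these strains overlapped. The log2 fold change was -6.37 ± 0.58 for Cast and 2.24 ± 0.27 for NZO against the other strains.

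Tgtp1 and Tgtp2, together called Irgb6, are effectors that load early onto the vacuole. In WSB, Tgtp1 ran from 0.134 over a median of 0.365 to 0.561 CPM, below every other library (2.78 CPM or more), while Tgtp2 ran from 3.67 over 6.66 to 7.83 CPM. In Cast the pattern was the other way round, with Tgtp1 at 4.96 to 39.1 CPM and Tgtp2 at 0.0267 to 1.52 CPM, below every other library (2.08 CPM or more). The Cast libraries with most Tgtp1, replicates 5 (39.1 CPM) and 6 (22.5 CPM), had 0.244 and 0.16 CPM of Tgtp2. The highest Cast value of Tgtp2 (1.52 CPM) came from replicate 8, which also held most of the Cast reads of Iigp1.

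As a share of the reads of both copies, Tgtp1 held 96.7 ± 5.68% in Cast, 5.51 ± 3.48% in WSB, 24 ± 1.24% in PWK and 59.3 ± 5.03% in NZO (SD). In 129, AJ, B6 and NOD it held between 36.3% and 41.9%. The sum of both copies was highest in B6 (20.3 to 76.6 CPM, median 41.1) and lowest in WSB (3.87 to 8.31 CPM, median 6.94), a ratio of strain means of 7.16 against 55 for Tgtp1 and 81.5 for Tgtp2 alone. For the sum the log2 fold change was 1.31 ± 0.24 in B6, -1.94 ± 0.31 in WSB and -0.60 ± 0.29 in Cast. For Tgtp1 alone it was 1.17 ± 0.26 in Cast, which became 0.23 without Cast replicates 5 and 6.

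9930111J21Rik1 and 9930111J21Rik2 each encode a tandem protein with 2 nucleotide-binding loops, and RefSeq lists 9930111J21Rik2 also as Irgb5. In Cast, 9930111J21Rik2 ran from 0.0228 over a median of 0.0749 to 0.356 CPM, and in PWK from 0.0289 over 0.375 to 1.7 CPM. The other 6 strains ran from 10.9 CPM in a WSB library to 73.9 CPM in an NZO library, with no overlap. WSB (10.9 to 18 CPM, median 13.2) lay apart from the 5 strains above it, where 129, NOD, AJ, B6 and NZO overlapped. The log2 fold change was -7.75 ± 0.36 in Cast, -4.93 ± 0.27 in PWK and 2.90 ± 0.15 in NZO.

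9930111J21Rik1 had 3 reads over all 7 Cast libraries, with 6 of them at 0 after rounding (0.0117 CPM, exact 95% Poisson interval 0.00241 to 0.0342). The mean of the other 7 strains was 588 times that level, with a counting interval of 201 to 2850, and the fitted value depends on the prior count. In PWK it ran from 0.254 over a median of 0.384 to 0.831 CPM and in NZO, the highest strain, from 8.75 over 13.1 to 16.1 CPM.

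Since each contrast is set against the mean of the other 7 strains on the log scale, the near-empty Cast and PWK values pull that mean down. For this reason 9930111J21Rik2 had a log2 fold change of 0.54 ± 0.17 in WSB, although its WSB mean (13.9 CPM) was lower than that of every strain except Cast and PWK. On the authors' variance-stabilised log2 values the same contrast was -0.22.

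The neighbouring predicted gene Gm12185, listed by RefSeq under the synonym Irgb2b1, showed the opposite picture. It is 93.41% identical in coding sequence to 9930111J21Rik1, and the tandem protein of this name is known from wild-derived mice for binding a virulence factor of Toxoplasma gondii. Gm12185 ran in Cast from 9.51 over a median of 11.2 to 47.8 CPM and in PWK from 10.9 over 12.9 to 19 CPM, and it was at or below 3.13 CPM in every library of the other 6 strains. Its log2 fold change was 3.98 ± 0.21 in Cast (edgeR adjusted p = 1.91e-23) and 3.35 ± 0.21 in PWK (adjusted p = 3.67e-20) against the other strains. Gm12185 and the pathway lists were also chosen with earlier results of these libraries known, so their p-values are not independent evidence. Its annotated span covers 9930111J21Rik1 and part of Tgtp1, so reads in shared exons are uncertain. Of the reads of Gm12185 and 9930111J21Rik2 together, Gm12185 held 99.3 ± 0.593% in Cast and 96.9 ± 2.43% in PWK (SD), and 3.45% or less in each of the other 6 strain means.

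With 9930111J21Rik1, 9930111J21Rik2, Gm12185 and the tandem gene Gm5431 added together, the sum was lowest in PWK (12.5 to 23.5 CPM, median 15.2) and highest in NZO (55.5 to 106 CPM, median 87). The ratio of the highest to the lowest strain mean was 5.18, against 648 for the sum of the 2 Rik genes. This sum was chosen after Gm12185 was seen to be high in Cast and PWK, so a smaller ratio follows from the choice and nothing is read from it. Gm12185 is also less alike (93.33% identical to 9930111J21Rik2) than the near-identical pairs above. Cast (13.9 to 63.6 CPM, median 16.4) overlapped its neighbours in the order, WSB and 129.

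**Figure D2:**
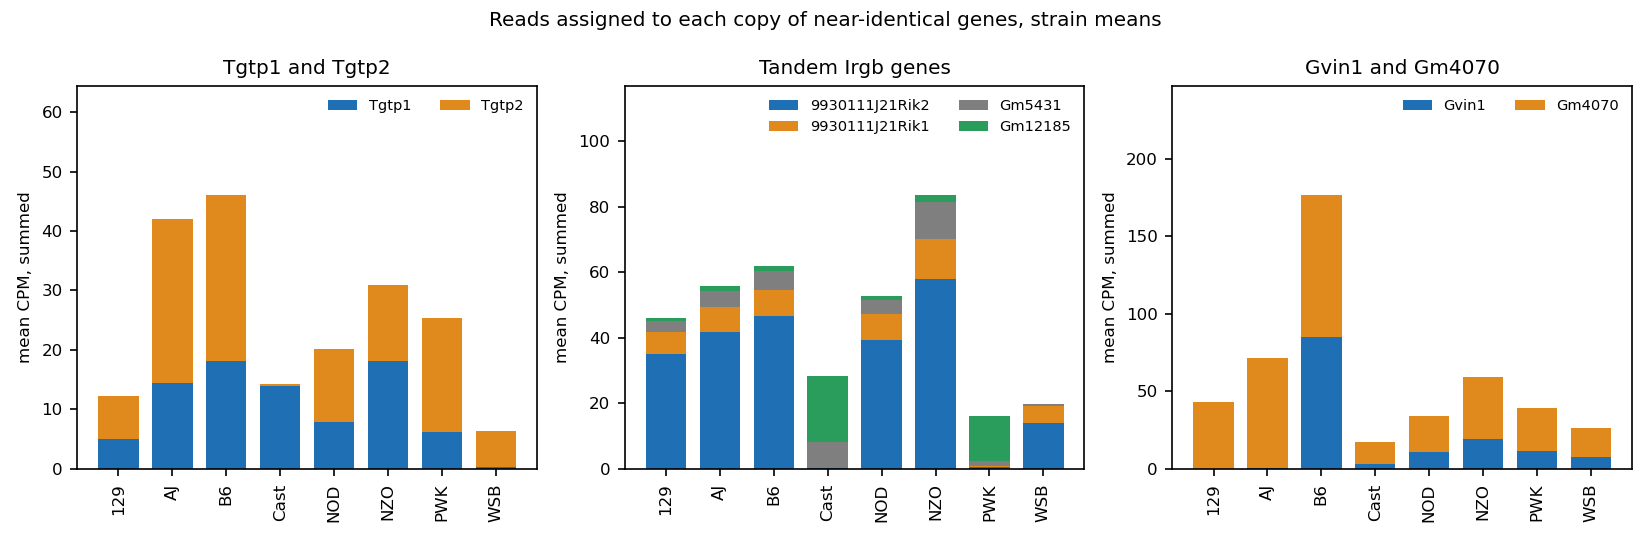
Mean CPM per strain, stacked by gene, for Tgtp1 and Tgtp2 (left), 4 tandem Irgb genes (middle) and Gvin1 with Gm4070 (right). Single copies are nearly missing in some strains while the stacked height stays within a factor of 7.16, 5.18 and 10.3 between strains. The sets in the middle and right panels were chosen after seeing the data.

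Gvin1 encodes a very large interferon-inducible GTPase whose function is little known. It had 125, 102, 90.5, 64.7, 103, 64.2, 44.6 and 85.4 CPM in B6 replicates 1 to 8, above every other library (36.7 CPM or less). In 129 only 26 reads were counted over 7 libraries, 4 of them at 0 (0.0936 CPM, exact 95% Poisson interval 0.0611 to 0.137). In AJ there were 98 reads, with 3 of 7 libraries at 0 (0.335 CPM, 0.272 to 0.408). Cast (2.19 to 5 CPM) lay above AJ with no overlap, and NOD, NZO, PWK and WSB ran from 3.19 to 36.7 CPM. The log2 fold change was 4.88 ± 0.21 in B6, -6.35 ± 0.52 in 129 and -4.29 ± 0.43 in AJ.

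Gm4070, which matches Gvin1 at all but 3 coding bases, was present in every strain. It averaged 43.1 ± 7.73 CPM in 129 and 71.3 ± 15.3 CPM in AJ (SD, n = 7 each), the strains nearly without Gvin1, and 91.5 ± 31.3 CPM in B6 (n = 8). Gvin1 held 48.6 ± 4.67% of the reads of both in B6, 18.1% to 32.6% in the Cast, NOD, NZO, PWK and WSB means, 0.495% in AJ and 0.205% in 129. The sum of both ran in B6 from 82 over a median of 174 to 255 CPM and was lowest in Cast (10.3 to 33.8 CPM, median 14.4). Its log2 fold change was 2.22 ± 0.14 in B6, -0.10 ± 0.17 in 129 and 0.73 ± 0.16 in AJ. Gm8979, annotated near Gvin1 on chromosome 7, also had 0 reads in 129 and 3 reads in AJ, against 385 in B6 and 1408 in NOD.

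**Figure D3:**
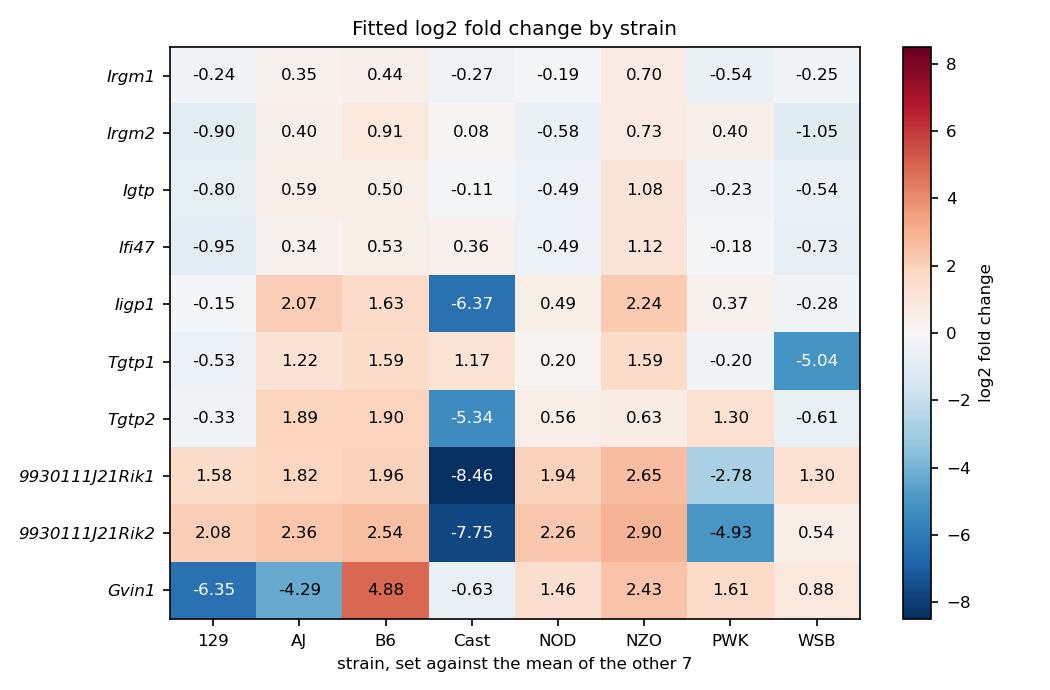
Fitted log2 fold change of each gene (rows) in each strain (columns) against the mean of the other 7, from edgeR. The regulators and Ifi47 stay between -1.05 and 1.12, while the lowest cells are the 9930111J21Rik genes in Cast (-8.46 and -7.75), Iigp1 in Cast (-6.37) and Gvin1 in 129 (-6.35).

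Counted by strain, NZO had all 10 genes called higher (edgeR, adjusted p under 0.05) with a median log2 fold change of 1.35, where 53.9% of all genes tested were called and 27.2% higher. Of these, Tgtp2 (0.63 ± 0.27) was no longer called with DESeq2, limma or the replicate block, and 9 genes then passed in each case. The same held without NZO replicate 8, WSB replicate 7, the liver-rich libraries or Cast replicate 1, 5 or 6. By level, Tgtp2 averaged 12.8 CPM in NZO, against 14.4 CPM for the mean of the other strain means. Of the 8 NZO libraries, 6 lay below the median of the other libraries for Tgtp2. B6 had 9 called, all higher (background 26.3% called, 14.6% higher). Without the liver-rich libraries Ifi47 no longer passed in B6 (0.49, against 0.53 with them). AJ had 7 called, 6 of them higher and Gvin1 lower (background 23.0% called, 13.4% higher and 9.59% lower). Without AJ replicates 3 and 4, 5 were called, with Igtp (0.00) and Tgtp1 (0.68, against 1.22 with them) no longer passing. WSB had 7 called, 3 higher and 4 lower (background 49.3% called, 25.6% higher and 23.7% lower). Igtp in WSB (-0.54) no longer passed without WSB replicate 7 (-0.48) or without Cast replicates 5 and 6 together (-0.45). Strain 129 had 6 called, with 2 higher and 4 lower (background 18.6% called, 10.8% higher and 7.78% lower). Cast had 5 called, 1 higher and 4 lower (background 56.2% called, 29.6% higher and 26.6% lower), PWK 5 with 2 higher and 3 lower (background 43.6% called, 24.6% higher and 19.0% lower), and NOD 4 with 3 higher and 1 lower (background 26.5% called, 14.7% higher and 11.8% lower). A call of higher refers to the log-scale mean of the other 7 strains, which near-empty strains pull down. The 3 genes called higher in WSB (Gvin1, 9930111J21Rik1 and 9930111J21Rik2) averaged 7.52, 5.42 and 13.9 CPM there. The means of the other strain means were 18.5, 6.11 and 31.6 CPM. In 129, 9930111J21Rik1 and 9930111J21Rik2 were called higher, with 5 and 4 of 7 libraries below the median of the others. Any difference among the 8 strains was called for all 10 genes, as for 89.9% of genes tested. The rule that picked the genes used these contrasts, so nothing is read from the counts.

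In NZO the lists of immune cell markers were high as well. The summed level of 15 T and NK cell markers ran from 33.3 over a median of 49.8 to 80.9 CPM in NZO, against 1.84 to 31.2 CPM in the other strains. All 15 were called higher in NZO, where 27.2% of all genes were called higher and 26.6% lower. The summed level of 12 macrophage markers ran from 2160 to 6080 CPM in NZO, against 459 to 2430 CPM elsewhere, with 11 of 12 called higher. With the T and NK score as a covariate, 2 of the 10 GTPase genes were called in NZO, where 21.8% of all genes were called, and with the macrophage score 4, where 22.0% were. In Cast all 15 T and NK markers were called lower (1.84 to 7.35 CPM summed, background 26.6%). Of the 15, 8 were at 0 in 1 or 2 of the 7 libraries, Cd3e, Cd3d, Cd3g and Cd8a among them. None was at 0 in every library of any strain, and no macrophage marker was at 0 in any library. Markers of other cells also moved in NZO (background 27.2% higher and 26.6% lower). There 6 of 7 B cell and all 6 neutrophil markers tested were called higher and 8 of 10 adipocyte genes lower. The summed neutrophil markers ran from 6.16 over a median of 17.8 to 2740 CPM in NZO and the B cell markers from 267 over 345 to 2640 CPM, with NZO replicate 8 far above the other 7 libraries in both. The NZO T and NK scores (0.72 to 2.05) hardly overlapped those of the other strains (0.76 or less). The NZO macrophage scores (6.47 to 7.96) also hardly overlapped the others (6.57 or less). These covariate fits therefore cannot tell cell content and strain apart, and the part of other cells in the strain differences was not tested.

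Within strains, the genes were tested against scores of other interferon genes. The first score was the mean log2 CPM of 13 other interferon gamma targets, among them the chemokines Cxcl9 and Cxcl10, the peptide transporter Tap1 and the MHC regulator Ciita. Each slope is the log2 change of a gene per unit of the log2 score after strain means are taken out, and it was fitted in edgeR across all genes. Of the 10 genes, 7 rose with this score, against 3.19% of all genes (4.94% called in either direction). Igtp rose by 1.14 ± 0.16 (SE, adjusted p = 1.38e-06), Irgm2 by 0.90 ± 0.15 (adjusted p = 6.54e-05) and Irgm1 by 0.52 ± 0.12 (adjusted p = 0.00402). Among the effectors, Iigp1 rose by 2.00 ± 0.41 (adjusted p = 0.000976), Tgtp2 by 1.74 ± 0.35 (adjusted p = 0.000882), Tgtp1 by 1.23 ± 0.22 (adjusted p = 0.000105) and Ifi47 by 0.67 ± 0.18 (adjusted p = 0.0177).

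The other 3 genes did not pass this test. Gvin1 had a slope of 0.62 ± 0.31 (edgeR adjusted p = 0.286), 9930111J21Rik1 of 0.40 ± 0.27 (adjusted p = 0.848) and 9930111J21Rik2 of 0.09 ± 0.27 (adjusted p = 0.91). Gvin1 was near 0 in 129 and AJ, and the 9930111J21Rik genes in Cast and PWK. Cast replicate 5 had the highest score of its strain (3.37) and Cast replicate 1 the lowest of all (1.12). Without Cast replicate 5, 5 genes were called, and Irgm1 (0.34, adjusted p = 0.185) and Ifi47 (0.53, adjusted p = 0.204) no longer passed. Without Cast replicates 1 and 5 together, 7 were called.

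**Figure D4:**
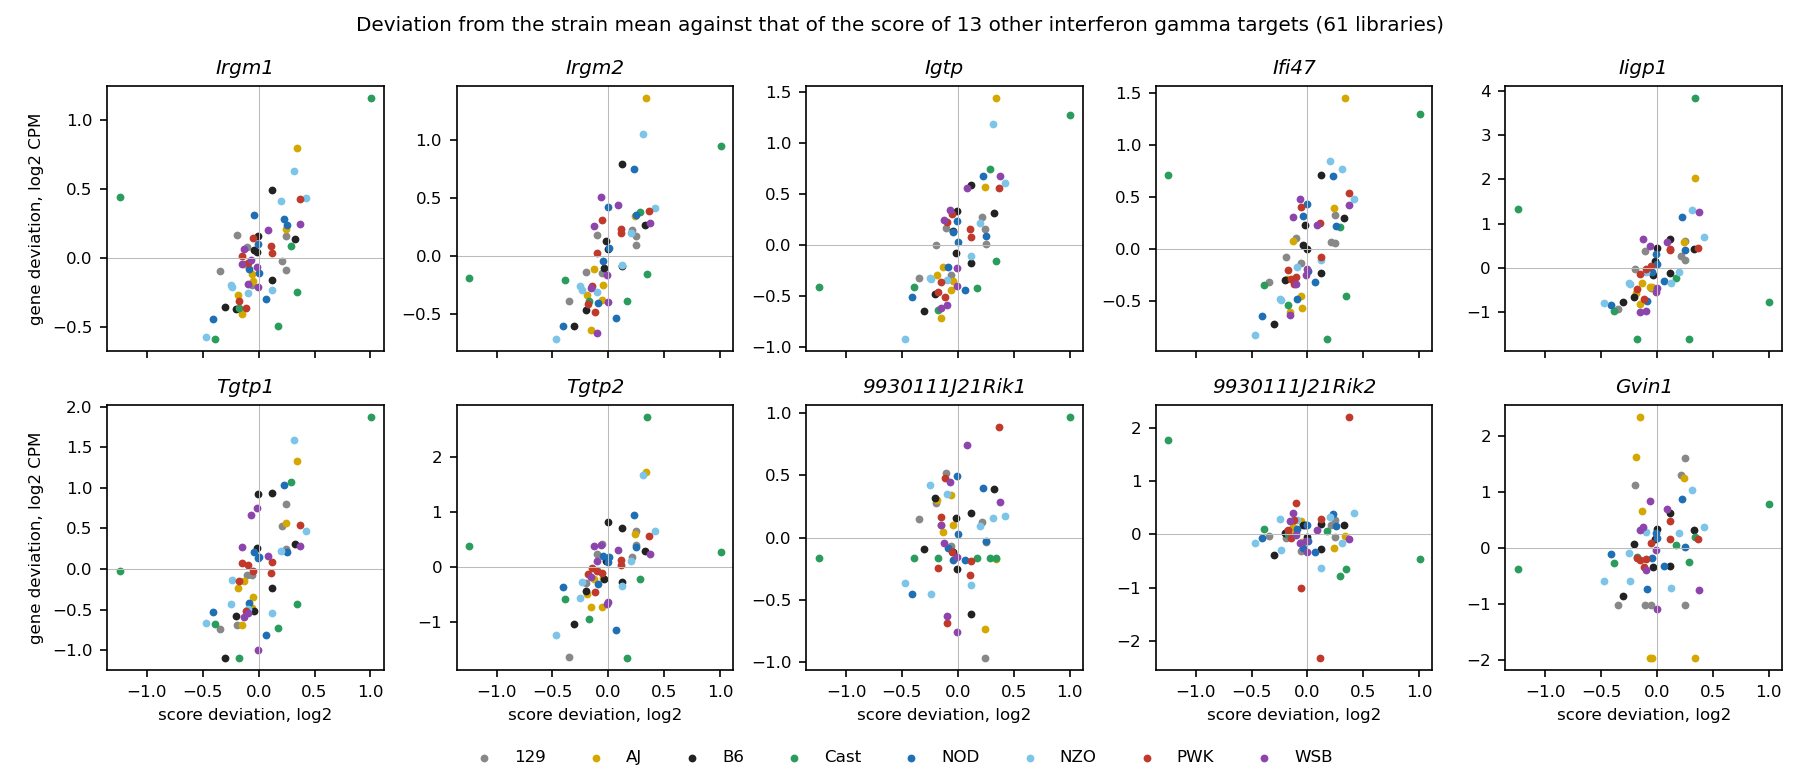
Deviation of each gene (log2 CPM) from its strain mean against the deviation of the score of 13 other interferon gamma targets, 1 point per library, 61 libraries, coloured by strain; vertical scales differ. Points of Irgm2, Igtp, Tgtp1 and Ifi47 climb to the right, those of both 9930111J21Rik genes and Gvin1 spread without a slope past the test, and the points far left and far right are Cast replicates 1 and 5.

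The second score held 20 genes typical of type I interferon, such as Isg15, Ifit1 and Rsad2. With it 8 of 10 genes rose, against 8.80% of all genes (15.0% called in all, 6.21% lower). Slopes ran from 0.44 ± 0.06 in Irgm1 (edgeR adjusted p = 7.95e-08) to 0.93 ± 0.27 in Iigp1 (adjusted p = 0.0137), with Igtp at 0.76 ± 0.09 (adjusted p = 5.42e-09). 9930111J21Rik1 also passed (0.58 ± 0.15, adjusted p = 0.00457), a call that was lost without Cast replicate 5 (0.43, adjusted p = 0.117). Gvin1 (0.45 ± 0.17, adjusted p = 0.0579) and 9930111J21Rik2 (0.18 ± 0.17, adjusted p = 0.556) did not pass. The 2 scores share libraries, and all 20 genes of the second list rose with the first score, so their slopes are not separate evidence.

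Markers of the cells that make interferon gamma gave fewer calls. With the T and NK score Tgtp2 alone passed (slope 1.04 ± 0.28, edgeR adjusted p = 0.0467), 1 of 10 genes where 1.18% of all genes were called and 0.919% rose. It no longer passed without Cast replicate 8 (0.73, adjusted p = 0.229). Iigp1 (1.19 ± 0.33, adjusted p = 0.0521) and 9930111J21Rik2 (0.64 ± 0.18, adjusted p = 0.0577) missed the threshold, and 5 genes had an unadjusted p under 0.05. DESeq2 called 3 genes and limma 1, and with the replicate number as a block edgeR called 0.

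With the macrophage score no gene was called by edgeR, DESeq2 or limma, and none had an unadjusted p under 0.05 in edgeR, where 38.0% of all genes were called, 17.1% lower. With the replicate number as a block edgeR called 2, Iigp1 (-0.83) and Tgtp2 (-0.64). Without the block, slopes ran from -0.51 ± 0.30 in Iigp1 (edgeR adjusted p = 0.171) to 0.33 ± 0.17 in 9930111J21Rik1 (adjusted p = 0.118). Xist, the RNA that coats the inactive X chromosome, was used as a last score because many genes of this tissue follow it. Against it 4 of 10 genes rose (Irgm2, Iigp1, Tgtp2 and Ifi47, by 0.04 to 0.09 per log2 unit), where 36.6% of all genes were called and 17.7% rose. The labels give no sex and none was inferred.

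**Figure D5:**
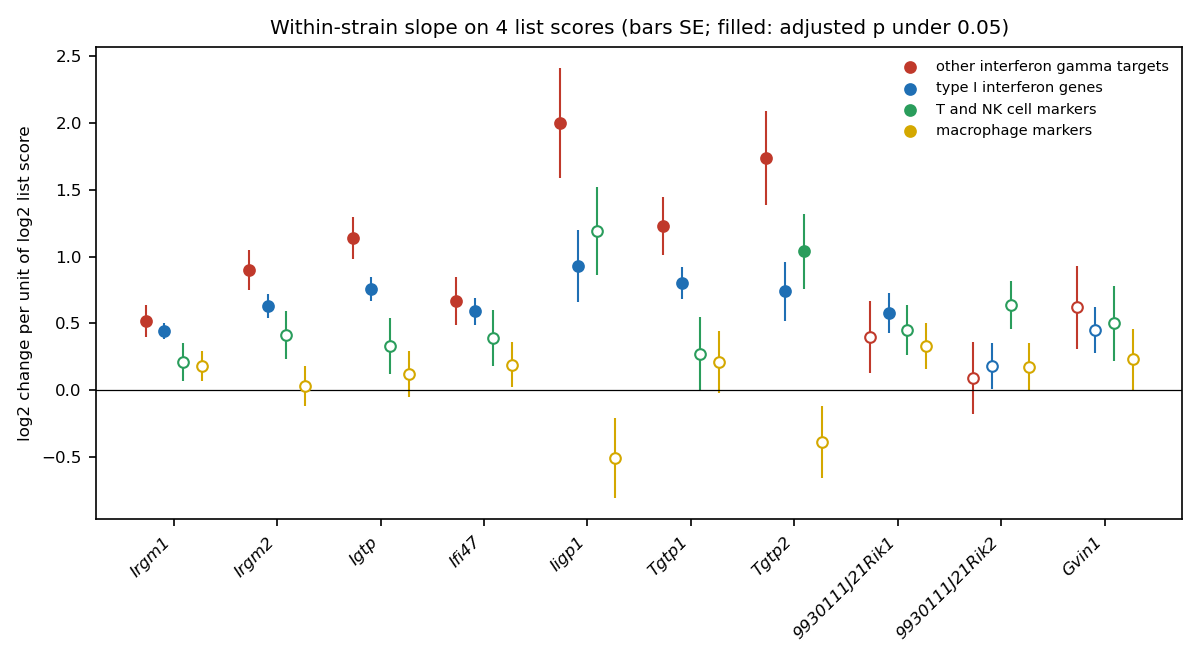
Slope of each gene on 4 list scores within strains, in log2 change per unit of log2 score, with SE bars; filled points had an adjusted p under 0.05. Red points (interferon gamma targets) and blue points (type I interferon genes) are filled for Irgm1, Irgm2, Igtp, Ifi47, Iigp1, Tgtp1 and Tgtp2, and no yellow point (macrophage markers) is filled.

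Irgm1, Irgm2, Igtp, Ifi47, Iigp1, Tgtp1 and Tgtp2 also followed one another among libraries of a strain. Over the 21 pairs of these 7 genes the median Pearson r of the deviations was 0.76 (0.38 to 0.95, 61 libraries), with Irgm2 and Igtp highest. Tgtp1 and Iigp1 gave the lowest. Pairs of 1 of the 7 with a 9930111J21Rik gene or Gvin1 had a median r of 0.15 (-0.02 to 0.31), and the 9930111J21Rik genes had r = 0.29 with each other. These are descriptions over libraries that share a strain mean, and Igtp and Irgm2 share reads.

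The same libraries were often highest for several genes. AJ replicate 3 was the highest AJ library for 7 of 10 genes, with 191 CPM of Iigp1 against an AJ median of 34.8 CPM and 78.7 CPM of Irgm2 against 25.6 CPM. NZO replicate 5 was highest for 7 genes, NOD replicate 3 for 8 and PWK replicate 1 for 9. Cast replicate 5 was highest for 7 genes, and its type I interferon score (4.58) exceeded that of the other Cast libraries (0.66 to 2.48). In Cast replicate 8, Iigp1 and Tgtp2 were highest.

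Outside the family, the genes most like each member within strains were named by the highest Pearson r of deviations over 61 libraries. A guanylate-binding protein gene was among the 3 most alike for 5 members. Gbp7 was so for Irgm2 (r = 0.87), Igtp (0.83), Tgtp1 (0.82), Ifi47 (0.77) and Tgtp2 (0.63), and Tap1 for Irgm2 (0.83), Ifi47 (0.77) and Tgtp2 (0.66). For Irgm1 these were Phf11d (0.80) and the interferon signalling factors Irf9 (0.78) and Stat2 (0.77). For Iigp1 the closest was Ifi202b (0.66). Gvin1 was closest to the zinc finger genes Zfp59 (0.50), Zfp235 (0.40) and Zfp27 (0.38), and 9930111J21Rik2 to the ribosomal pseudogene Rpl17-ps8 (0.72).

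Over the 8 strain means the closest genes were others. Irgm1 was closest to Zbp1 (r = 0.98), a sensor of nucleic acids, and Irgm2 to Ass1 (0.96) and Gbp3 (0.94). Iigp1 was closest to Ube2d1 and Tpst1 (0.99 each) and Gvin1 to Fam43a (0.89). These values rest on 8 points each, and the highest of many genes is shown.

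Of the wider pathway, the ligand was near the limit of detection. Ifng, the gene of interferon gamma, had 160 reads over 61 libraries, at most 27 in 1 library, and was at 0 in 22. NZO held 76 of these reads with no library at 0. Cast had 0 reads in 7 libraries. Taking 3 reads as the limit for a count of 0, that allows up to 0.0117 CPM. This limit differs in kind from the exact Poisson intervals given for other genes. Ifng was not among the genes tested.

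Of 10 signalling genes tested, 6 were called higher in NZO (background 27.2%) and none lower. The NZO log2 fold changes were 2.00 ± 0.13 for the myeloid factor Irf8 (edgeR adjusted p = 2.6e-19), 1.01 ± 0.10 for the receptor chain Ifngr2 (adjusted p = 5.11e-13) and 0.69 ± 0.12 for Irf9 (adjusted p = 2.31e-06). In Cast 4 were called lower (background 26.6%), with Irf8 at -1.41 ± 0.18 (adjusted p = 2.99e-09) and Ifngr2 at -1.19 ± 0.13 (adjusted p = 1.07e-11). Irf1, a transcription factor of the interferon response, was 0.34 ± 0.09 in NZO (adjusted p = 0.000793), 0.29 ± 0.09 in PWK (adjusted p = 0.00614) and -0.25 ± 0.09 in NOD (adjusted p = 0.0322).

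The 11 guanylate-binding proteins, which act beside the effectors at the vacuole, also differed by strain. The median log2 fold changes of this list and of the 10 GTPase genes had the same sign in every strain except NOD (-0.05 and 0.35). In NZO 8 were called higher and 2 lower (background 27.2% and 26.6%). In B6 7 were called higher and 2 lower (background 14.6% and 11.7%), and in AJ 7 higher and none lower (background 13.4% higher). In Cast 3 were called higher and 6 lower (background 29.6% and 26.6%), and in WSB 2 higher and 7 lower (background 25.6% and 23.7%). Gbp6 had a log2 fold change of 6.63 ± 0.40 in AJ (edgeR adjusted p = 4.32e-20) and -7.07 ± 1.16 in Cast (adjusted p = 7.23e-07). Gbp2b was higher in AJ (4.20 ± 0.14, adjusted p = 1.38e-31) and 129 (3.59 ± 0.15, adjusted p = 1.66e-27), and lower in B6 (-2.08 ± 0.22, adjusted p = 3.14e-11) and WSB (-2.05 ± 0.22, adjusted p = 3.91e-11).

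Of the 13 other interferon gamma targets, 11 were called higher and 1 lower in NZO (background 27.2% and 26.6%). In Cast 8 were called lower and 2 higher (background 26.6% and 29.6%). Ciita was lower in Cast (log2 -2.91 ± 0.28, edgeR adjusted p = 3.75e-13) while Ido1 was higher there (2.62 ± 0.34, adjusted p = 3.92e-09). Of the 20 type I interferon genes, 18 were called higher in NZO (background 27.2%), 14 higher in B6 (background 14.6%) and 15 lower in WSB (background 23.7%). Rsad2, which encodes the antiviral protein viperin, was 1.72 ± 0.22 in NZO (adjusted p = 1.9e-09) and -1.86 ± 0.30 in WSB (adjusted p = 7.71e-07).

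The 14 autophagy and ubiquitin factors that place the effectors on vacuoles followed another order, with 11 higher and 2 lower in Cast (background 29.6% and 26.6%). In NZO 3 were called higher and 6 lower (background 27.2% and 26.6%). Gabarapl1, an ATG8-type protein, was 1.74 ± 0.12 in Cast (edgeR adjusted p = 1.57e-18) and -0.95 ± 0.14 in NZO (adjusted p = 1.06e-07). Atg7, the enzyme that starts ATG8 conjugation, was -0.89 ± 0.07 in PWK (adjusted p = 2.1e-17). Over all pathway lists and strains, 308 of 624 gene and strain pairs were called, and 187 with the T and NK score as a covariate. By strain, the share of all genes called ran from 18.6% in 129 to 56.2% in Cast. In NZO it was 53.9%, and 21.8% with that covariate, so nothing is read from these counts.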

How the data were processed

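Poly(A) RNA libraries of adipose tissue from 61 mouse samples were made with an added spike-in, per the labels' protocols. The authors deposited expected counts for 21169 genes, read estimates of which 21.1% are not whole (tolerance 1e-06). The authors also deposited log2 values from the variance-stabilising transformation of DESeq2, per the submitters' processing notes, which name build GRCm38. Aligner and counter are not given in the sources used here.

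The 10 genes and all lists were chosen with earlier results of these data known. Expected counts were rounded and filtered by strain with filterByExpr (2566 genes removed, 18603 kept), scaled by TMM, and the quasi-likelihood model of edgeR 4.0.16 (R 4.3.3) with robust moderation took 1 mean per strain. Each strain was set against the unweighted mean of the other 7, and slopes on list scores were added to the strain means, with Benjamini-Hochberg adjustment over all genes. Each SE of a fold change or slope is the absolute estimate divided by the square root of its F statistic, and not a separately fitted error. Logged values used a prior count of 2. On simulated counts over 18603 genes, 80 of 100 genes changed by log2 1 in NZO, 54 of 100 changed by log2 0.5 and 160 of 200 with a slope of 1 on the T and NK score were recovered. The changed genes were drawn only from those above a floor of fitted mean count, so these shares do not cover genes near 0. How many unchanged genes were called is not given here. Depth of 19851580 to 61277576 counts a library limits genes under about 1 CPM, and intervals cover counting error only. DESeq2 1.42.0, limma 3.58.1, other scaling and filters, covariates, summed copies and left-out libraries were tried. Coding sequences were aligned with MAFFT 7.526. From each list and strain up to 4 called genes with the largest change are eligible for naming, Ifng, Irf1 and other family rows always, and for likeness the 3 highest r among genes of at least 1 CPM, passing over predicted genes, Xist and Y genes. Of the genes this rule names, 1 is not reported here.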

Additional observations from a re-analysis of the deposited data

Results flagged for a closer look

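In 17 of the 80 groups of 1 gene and 1 strain, the highest library lay far from the rest by Dixon's criterion. Chance gives this in about 1 of 20 groups of normally distributed values. CPM values, some of them near 0, need not follow that distribution, so the count is not set against that rate. Several of these libraries are shared, so the groups are not independent, and the causes were not tested. AJ replicate 3 stood apart with 46.5 CPM of Irgm1, 78.7 CPM of Irgm2, 49 CPM of Igtp, 27.9 CPM of Ifi47, 191 CPM of Iigp1 and 75.3 CPM of Tgtp2. NZO replicate 5 stood apart with 47.4 CPM of Tgtp1, 34.2 CPM of Tgtp2 and 36.7 CPM of Gvin1, and NOD replicate 3 with 47.7 CPM of Iigp1 and 14.9 CPM of Tgtp1. Cast replicate 8 stood apart with 2.14 CPM of Iigp1 and 1.52 CPM of Tgtp2. The remaining values concern genes near 0 or low in their strain. They are 5 CPM of Gvin1 and 0.0604 CPM of 9930111J21Rik1 in Cast replicate 5, 0.356 CPM of 9930111J21Rik2 in Cast replicate 1 and 1.7 CPM of 9930111J21Rik2 in PWK replicate 1.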

How the results depend on the processing

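Over the alternative settings, 1565 of the fold changes kept their direction and side of the threshold, 51 no longer passed, 57 passed only then and 21 reversed. Of the slopes 849 kept both, 28 no longer passed and 28 passed only then, and none reversed. Most reversals come by construction from taking B6, a high strain, as the comparison in place of the mean of 7. Against B6 the log2 fold changes were -0.34 (9930111J21Rik1) and -0.40 (9930111J21Rik2) in 129, and -0.32 (Tgtp1), -0.02 (Tgtp2), -0.12 and -0.16 (the 9930111J21Rik genes) in AJ. They were -0.37 for Tgtp1 in Cast, and -3.00 (Gvin1), -0.03 and -0.24 (the 9930111J21Rik genes) in NOD. In NZO they were -0.15 (Irgm2), -1.12 (Tgtp2) and -2.14 (Gvin1), in PWK -0.53 (Tgtp2) and -2.86 (Gvin1), and in WSB -3.50 (Gvin1), -0.59 and -1.75 (the 9930111J21Rik genes). The Tgtp1 and Tgtp2 sum was -0.13 in AJ and -0.57 in NZO. The 9930111J21Rik sum was -0.39 in 129, -0.15 in AJ, -0.21 in NOD and -1.50 in WSB. With the T and NK score as a covariate Irgm2 (-0.03) and Tgtp2 (-1.25) reversed in NZO, and limma on variance-stabilised values reversed 9930111J21Rik2 in WSB (-0.22). The causes of the Irgm2 and Tgtp2 reversals in NZO were not tested. The WSB contrast of 9930111J21Rik2 is described above with the near-empty Cast and PWK values.

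Against B6 1 gene was called in AJ, 7 in NOD and 3 in NZO. In NZO 2 were called with the T and NK score (21.8% of all genes) and 4 with the macrophage score (22.0% of all genes). For the other counts here and with the replicate block below, the share of all genes called is not given, so nothing is read from them. The T and NK slope gave 3 calls with DESeq2 and without the liver-rich libraries, and 0 with no filter, with a mean of at least 5 CPM, with Xist as a covariate, without Cast replicates 5 and 6 and without AJ replicates 3 and 4. Leaving out single libraries gave 0 to 2. The Xist slope gave 7 calls without Cast replicates 5 and 6 and 2 without AJ replicates 3 and 4. The pathway lists gave 187 calls with the T and NK score. Dropping Cast replicates or AJ replicates jointly, Cast replicate 1, and summing Gvin1 with Gm4070 or the 4 tandem genes were chosen after seeing the data. Without Cast replicate 5, 9930111J21Rik1 in PWK (-2.47) no longer passed. Cast then held no read of it after rounding, so its mean has no value on the log scale and that fit could not test this contrast.

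With the replicate number as a block, 0 genes were called for the T and NK slope, 2 for the macrophage slope (Iigp1 at -0.83 and Tgtp2 at -0.64) and 2 for the Xist slope. The other counts stayed within 1.5 times. The labels give no batch shared by a number. Same-numbered libraries of different strains had a median r of 0.108 (96 of 186 pairs over 0.1), against -0.018 for others (418 of 1441 over 0.1), a hint of likeness from the data. The main fits took no block, and whether same-numbered libraries share a batch was not tested.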

Other observations

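Further rows of the family were present beside the 10 genes. Irgq, a family member not known to respond to interferon, was level across strains, with means from 40.6 ± 1.68 CPM in 129 (SD, n = 7) to 48 ± 4.65 CPM in PWK (n = 8). Irgc1, known from testis, was at or near 0 in most libraries but reached 22.3 CPM in 1 PWK library, 16.1 CPM in 1 NZO library and 9.53 CPM in 1 WSB library. Gm12250, listed by RefSeq as Irgb10, was highest in NZO (1.78 to 15.1 CPM, median 4.72, log2 fold change 2.04 ± 0.29, edgeR adjusted p = 4.33e-08).

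On chromosome 18, the region of Iigp1, Gm4841 ran in NZO from 3.72 over a median of 5.85 to 15.9 CPM, above every other library (log2 fold change 4.08 ± 0.34, edgeR adjusted p = 3.44e-15). Its neighbour Gm4951 had another order, with log2 fold changes of 1.87 ± 0.32 in B6 (adjusted p = 7.75e-06) and 1.64 ± 0.33 in WSB (adjusted p = 4.36e-05), and -2.02 ± 0.48 in Cast (adjusted p = 0.000317). F830016B08Rik was lower in Cast (-4.12 ± 0.67, adjusted p = 6.36e-07) and in PWK (-2.46 ± 0.54, adjusted p = 0.000179). In WSB, Gm12185 (-4.59 ± 0.41, adjusted p = 4.86e-14) and Gm5431 (-3.55 ± 0.25, adjusted p = 1.56e-17) were both low, while 9930111J21Rik1 ran from 3.02 to 8.62 CPM there.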
